A study of Mus musculus with 4 samples.

Results

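Primordial germ cell regulators were examined as a group of 8 genes among the 37310 genes of the count table. The genes were *Prdm1*, *Prdm14*, *Tcfap2c*, *Dppa3*, *Nanos3*, *Dnd1*, *Kit* and *Ifitm3*, chosen by name for their known roles, with earlier results of these data known. Each was matched to 1 Ensembl identifier of GENCODE vM1. RNA-seq compared 2 libraries of HATX WT mouse embryonic stem cells (mESCs) with 2 libraries labelled *Spen* KO clone 2. HATX cells of both groups carry an *Xist* transgene that doxycycline can switch on, the labels give their strain as a mixed background and state no treatment, and the cells were grown with serum and LIF on gelatin. The KO-labelled group is a single clone, in which most of the *Spen* gene was deleted per the study's methods, so that clone differences of any kind cannot be told apart from the loss of *Spen*. No label says that the 2 libraries of a group came from separate cultures, and p-values then measure only the spread between these libraries. Per the study the cells are haploid, which was not checked.

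Primordial germ cells are the embryonic precursors of eggs and sperm. In the mouse they are set aside from the epiblast in response to BMP signals, and a small network of transcription regulators, among them Prdm1, Prdm14 and Tcfap2c, shuts down somatic genes and brings back features of pluripotency. Embryonic stem cells share part of this network, so a transcript of a germ cell regulator in mESCs does not make them germ cells. Of these regulators 6 of 8, all but *Kit* and *Ifitm3*, were displayed by the study for these same libraries, and their directions are therefore not independent evidence.

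Total counts ranged from 36667685 to 61908422, with the WT libraries the shallower. Counts over the whole *Spen* gene were higher in KO-labelled cells. *Spen* had 3716 and 3047 normalized counts in WT and 7797 and 6242 in KO-labelled libraries (log2 fold change 1.05 ± 0.21 SE, DESeq2 adjusted p = 7.7e-06). These counts take in any exons outside the deletion, and the deleted part was not measured separately, so they do not check the label in either direction. The cells were mESCs by their defining markers. All 10 markers, *Pou5f1*, *Nanog* and *Sox2* among them, were measured, and their summed normalized counts were between 247500 and 265300 in all 4 libraries. Markers of other cell types were summed in the same way. Over 8 primitive endoderm markers the sums were 538.3 and 581.5 in WT and 286.5 and 247.3 in the KO-labelled libraries, and over 7 trophoblast markers 836.6 and 822.2 against 530.3 and 540.7. Most of the trophoblast sum was *Eomes*, without which it was 178 and 185 in WT and 205 and 211 in the KO-labelled libraries, where *Cdx2* was lower and *Ascl2* higher. Over 8 fibroblast markers they were 185.6 and 204.7 in WT and 446.7 and 518.0 in the KO-labelled libraries, mostly from *Thy1*, and over 8 markers of 2-cell-like cells they ran from 298.9 to 531.6. The trophoblast genes *Tpbpa* and *Prl3d1* were at 0 in every library.

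Of the 8 regulators, 4 differed between the groups, in opposite directions. *Prdm1*, *Dppa3* and *Kit* were lower and *Nanos3* was higher in the KO-labelled libraries at a DESeq2 adjusted p under 0.05, while *Prdm14*, *Tcfap2c*, *Dnd1* and *Ifitm3* did not pass. Among all 17710 genes with an adjusted p, 15.8% were lower and 16.4% higher by this rule, against 3 and 1 of the 8 regulators. With the study's thresholds of a 2-fold change and an adjusted p under 0.001, DESeq2 called *Prdm1* lower and 0 of the 8 higher, where 3.15% and 1.36% of all genes were called lower and higher. Unadjusted p-values under 0.05 gave 3 lower and 1 higher, a rule for which no share over all genes was computed. With edgeR 1 of the 8 was likewise called lower and 0 higher, beside 608 and 247 of all genes. The median log2 fold change of the 8 was -0.11, beside 0.005 over all genes tested. In bulk RNA, fewer cells expressing a gene and less RNA per cell cannot be told apart.

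**Figure D1:**
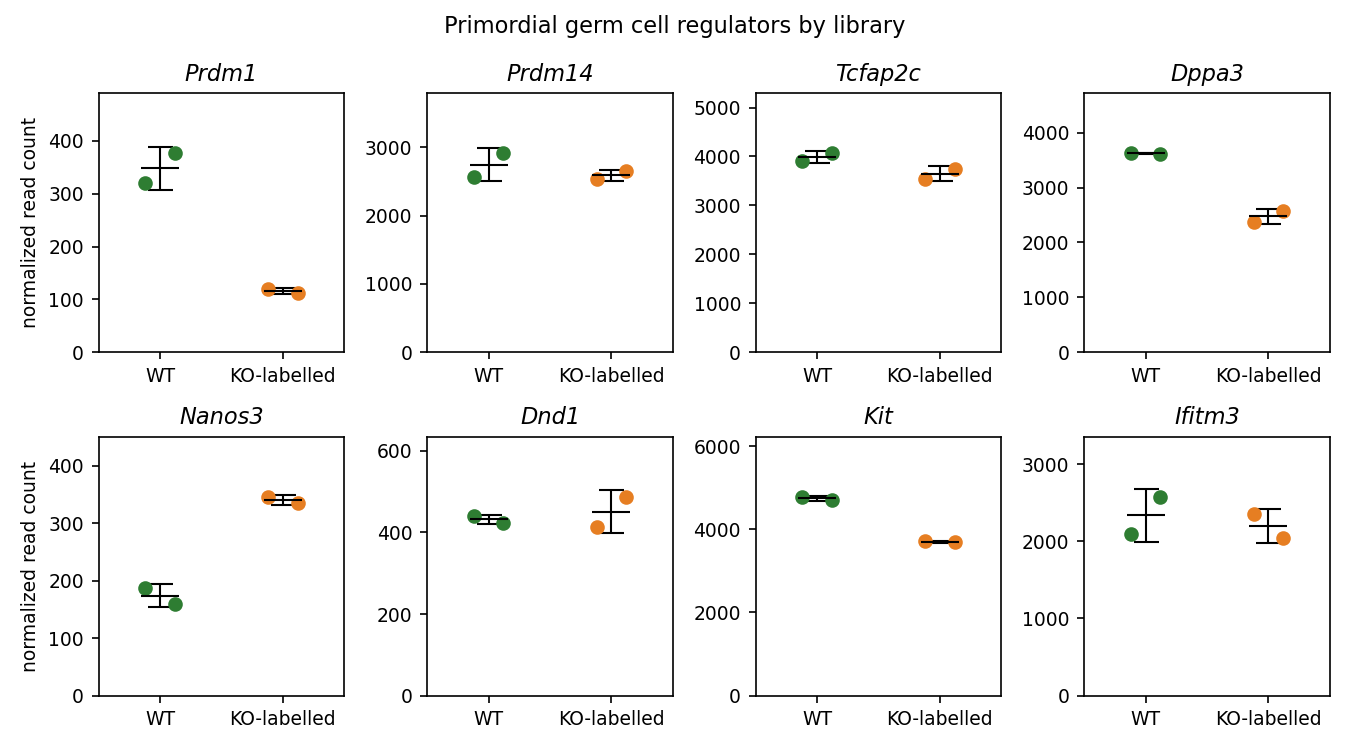
Normalized read counts of the 8 regulators (y axis, linear and starting at 0) in the WT and KO-labelled libraries (x axis), with each library as a point and the mean ± SD (n = 2) as a line with bars. *Prdm1* falls from a mean of 348.2 to 115.6 and *Nanos3* rises from 174.2 to 340.7, while the points of *Prdm14*, *Dnd1* and *Ifitm3* overlap.

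*Prdm1* had the largest difference of the 8. It encodes Blimp1, a zinc finger repressor that starts germ cell specification and silences the somatic program, and it lies on the minus strand of chromosome 10 (chr10:44156983-44248307, mm9). WT libraries held 319.5 and 376.8 normalized counts of *Prdm1*, against 119.3 and 111.9 in KO-labelled libraries. Both KO-labelled libraries were well below both WT libraries. On average it had 348.2 ± 40.5 normalized counts in WT and 115.6 ± 5.22 in KO-labelled cells (SD, n = 2). *Prdm1* fell by 1.59 ± 0.24 (SE) on the log2 scale, to 33.2% of the WT level, with a DESeq2 adjusted p of 3.11e-10. The raw counts behind this were 241 and 346 in WT and 137 and 143 in the KO-labelled libraries, and without WT replicate 2 the adjusted p was 0.00118, just short of the 0.001 threshold, in a range of 6.67e-12 to 0.00118 over the alternatives. The sum of the primitive endoderm markers was lower in the same libraries. Of the 5 tested, 2 (*Sox7* and *Gata4*) were lower by DESeq2, beside 15.8% of all genes, and 3 by edgeR. Their part in the result was not tested.

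*Prdm14* and *Tcfap2c*, which act with *Prdm1* in specification, did not pass the test. Prdm14 is a zinc finger regulator that upholds naive pluripotency as well as germ cell fate. *Prdm14* (chr1:13103538-13117244) had 2571 and 2913 normalized counts in WT and 2534 and 2646 in KO-labelled libraries. The groups overlapped, with a log2 fold change of -0.08 and a 95% interval of -0.27 to 0.105 (DESeq2 adjusted p = 0.575). *Tcfap2c* (chr2:172375093-172384122) encodes the transcription factor AP-2 gamma. It had 3898 and 4067 normalized counts in WT and 3534 and 3751 in the KO-labelled libraries. Its groups did not overlap, but the log2 fold change was -0.13, with an interval of -0.29 to 0.03 (DESeq2 adjusted p = 0.25). Removing the median shift of its chromosome moved *Tcfap2c* to -0.24, past the 0.05 threshold (adjusted p = 0.0192). Neither interval reaches a 2-fold change.

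*Dppa3* encodes Stella, which protects DNA methylation in the early embryo and is a classical marker of established primordial germ cells. On chromosome 6 (chr6:122576428-122580290, plus strand), it had 3627 and 3619 normalized counts in WT and 2381 and 2565 in the KO-labelled libraries. Both KO-labelled libraries were lower, and the WT libraries were nearly equal. *Dppa3* fell by 0.55 ± 0.09 (SE) on the log2 scale, to 68.3% of the WT level (DESeq2 adjusted p = 4.72e-09). Its counts are uncertain, because 82.7% of its exonic bases lie in stretches of 31 bases that occur again elsewhere in the mm9 genome, and how such reads were counted was not stated.

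*Nanos3* and *Dnd1* encode RNA-binding proteins that keep germ cells alive after specification. *Nanos3* (chr8:86697632-86700451, minus strand) was the member that rose. It had 188.3 and 160.1 normalized counts in WT and 346.5 and 334.9 in the KO-labelled libraries, which were both above the WT range. Mean levels were 174.2 ± 19.9 in WT and 340.7 ± 8.22 in KO-labelled cells (SD, n = 2). *Nanos3* rose by 0.97 ± 0.22 (SE) on the log2 scale, a fold change with a 95% interval of 1.45 to 2.65, and the DESeq2 adjusted p was 9.9e-05. *Nanos3* thus passed the p threshold and fell just short of the 2-fold limit, and upper-quartile size factors moved it to 1.01, past the limit. Its adjusted p ran from 3.23e-05 to 0.0356 over the alternatives and was above 0.001 with the replicate block (0.00362) and without any 1 of the 4 libraries (0.00392 to 0.0356). None of its exonic 31-base stretches occurs elsewhere in the genome.

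*Dnd1* had 440.2 and 423.6 normalized counts in WT and 413.6 and 487.5 in KO-labelled libraries. The groups overlapped. Its log2 fold change was 0.06, with an interval of -0.28 to 0.41 (DESeq2 adjusted p = 0.842). *Wdr55* on the other strand shares 38 bases with the exons of *Dnd1*, 1.58% of them, and rose by 0.55 on the log2 scale.

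*Kit*, the receptor tyrosine kinase for stem cell factor, carries survival and migration signals in germ cells. It lies on the plus strand of chromosome 5 (chr5:75970941-76052747). *Kit* had 4782 and 4705 normalized counts in WT and 3713 and 3683 in KO-labelled libraries. The groups did not overlap, and *Kit* fell by 0.36 ± 0.08 (SE) on the log2 scale, to 78.0% of the WT level (DESeq2 adjusted p = 3.39e-05). *Kit* is also a gene of blood precursors and pigment cells. Over 8 blood, vessel and pigment cell markers the sums were 5275 and 5338 in WT and 6709 and 7048 in the KO-labelled libraries, most of it from *Pecam1*. Without *Pecam1* the sums overlapped, at 858 and 1087 in WT and 1125 and 1038 in KO-labelled cells. *Pecam1* and *Mitf* were higher and *Kdr* lower, the median log2 fold change of the list was -0.16, and the leukocyte gene *Ptprc* had at most 1.74 normalized counts in any library. Their part in the result was not tested.

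*Ifitm3* encodes fragilis, a small interferon-inducible membrane protein that marks cells competent to become germ cells. It had 2091 and 2577 normalized counts in WT and 2356 and 2047 in the KO-labelled libraries (chr7:148195485-148196669). The groups overlapped, with a log2 fold change of -0.09 and an interval of -0.31 to 0.14 (DESeq2 adjusted p = 0.646). In their own tests the neighbouring paralog *Ifitm1* rose by 0.58 and *Ifitm2* by 0.63 (DESeq2 adjusted p = 4.62e-12 and 1.57e-14). Within each library the ratio of *Ifitm3* to *Ifitm1* normalized counts was 0.591 and 0.719 in WT and 0.453 and 0.377 in the KO-labelled group. Whether the paralogs differ in their response was not tested. Stretches of 31 bases with a copy elsewhere covered 36.0% of the exonic bases of *Ifitm3*, 51.5% of *Ifitm1* and 83.7% of *Ifitm2*, so reads may be shared or lost among them.

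Counts per kilobase of exon allow the levels of the 8 genes to be set side by side. In WT the order of normalized counts per kilobase was *Dppa3* (4060 ± 6.9), *Ifitm3* (3440 ± 507), *Tcfap2c* (1080 ± 32.6), *Prdm14* (1070 ± 94.4), *Kit* (814 ± 9.3), *Nanos3* (239 ± 27.3), *Dnd1* (179 ± 4.85) and *Prdm1* (63.4 ± 7.37; SD, n = 2). Only the ranges of *Tcfap2c* and *Prdm14* overlapped among neighbours in this order. The median gene tested had 156 normalized counts per kilobase, so *Prdm1* was the member below it in WT. *Dppa3* was above 95.4% of tested genes and *Prdm1* above 36.5%. In the KO-labelled libraries *Ifitm3* (3250 ± 322) lay above *Dppa3* (2770 ± 146), *Prdm14* and *Tcfap2c* again overlapped, and *Prdm1* was last at 21.0 ± 0.951. *Nanos3* rose to 467 ± 11.3 per kilobase but kept its place between *Kit* and *Dnd1*.

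**Figure D2:**
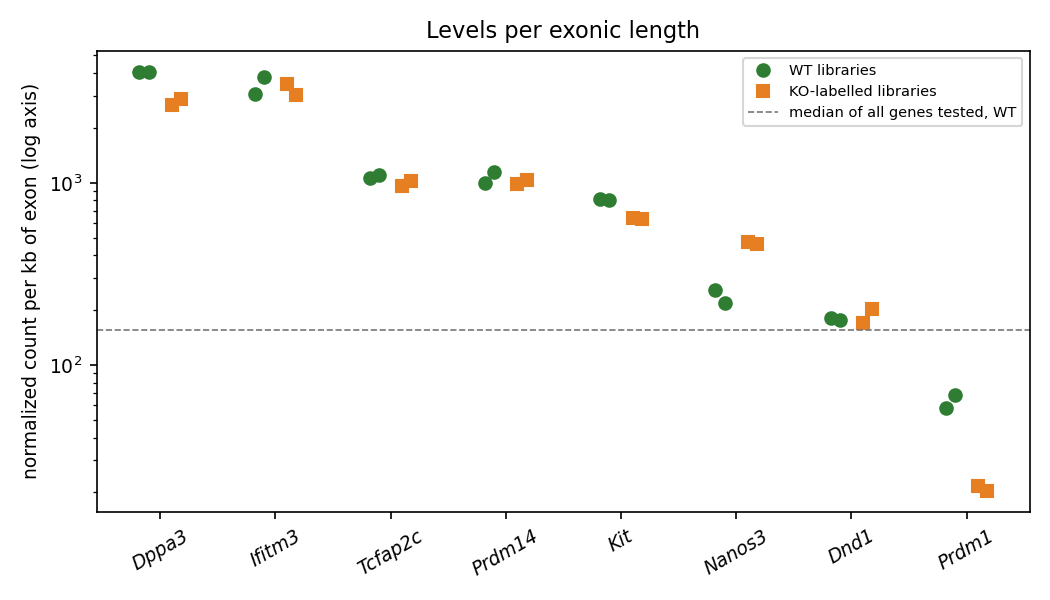
Normalized counts per kilobase of exon (y axis, logarithmic) for each regulator (x axis, ordered by WT mean), with each WT library as a circle, each KO-labelled library as a square, and the WT median of all genes tested, 156, as a dashed line. The levels span from 4060 for *Dppa3* in WT to 21.0 for *Prdm1* in the KO-labelled libraries.

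Sequences before the annotated starts of *Prdm1* and *Nanos3* are shown because these genes had the largest changes, in opposite directions. Each is 250 bases, 5′ to 3′ on the gene's strand, read from the mm9 (NCBIM37) genome at chr10:44248308-44248557 and chr8:86700452-86700701, both for genes on the minus strand. Capitals mark matches to the motifs searched on both strands, which were TGGGAA, the core bound by RBPJ, a factor for which Spen is a known corepressor, GCCNNNGGC of the AP-2 family to which Tcfap2c belongs, the octamer ATGCAAAT of Pou5f1, and TATAAA.
Prdm1: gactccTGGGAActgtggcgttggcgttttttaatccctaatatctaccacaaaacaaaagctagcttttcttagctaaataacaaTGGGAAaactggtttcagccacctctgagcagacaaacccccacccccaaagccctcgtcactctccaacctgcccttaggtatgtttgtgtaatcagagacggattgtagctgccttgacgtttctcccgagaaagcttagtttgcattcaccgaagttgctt
Nanos3: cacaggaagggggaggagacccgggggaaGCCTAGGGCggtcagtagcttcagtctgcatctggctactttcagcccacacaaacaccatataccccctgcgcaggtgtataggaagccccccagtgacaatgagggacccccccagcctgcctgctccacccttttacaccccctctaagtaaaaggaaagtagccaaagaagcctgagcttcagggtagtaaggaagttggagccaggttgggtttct
The *Prdm1* window held 2 RBPJ cores. Of 22380 windows of protein-coding genes 21.0% held at least 1, and the share with 2 was not computed. The *Nanos3* window held 1 AP-2 match, as 14.8% of windows did. Neither window held the octamer or TATAAA, found in 1.62% and 12.3% of windows, and no matches overlapped. Of the other members searched, *Dppa3* had an RBPJ core and a TATAAA that begins 20 bases before the start, *Tcfap2c* an RBPJ core, *Kit* an AP-2 match, and *Prdm14* and *Ifitm3* no match. The windows held 7 CpG in *Prdm1* and 3 in *Nanos3*, against a median of 8 over all windows. A match is a description of letters only, and the annotated start need not be the one used in mESCs.

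Neighbouring genes were then examined, since chromosome medians differed between the lines. Chromosome 10, which holds *Prdm1*, had a median log2 fold change of -0.35 over 613 genes with a mean of at least 50 normalized counts. By DESeq2, 15.8% of all genes tested were lower at an adjusted p under 0.05, and no share was computed for chromosome 10. Of the 6 tested genes nearest to *Prdm1*, 4 were lower by this rule. These were *Aim1* (-0.996), *Prep* (-0.54), *Rtn4ip1* (-0.44) and *Atg5* (-0.43), all smaller than the -1.59 of *Prdm1* itself. With chromosome medians removed *Prdm1* fell by 1.25 on the log2 scale (DESeq2 adjusted p = 2.76e-06). The part of the chromosome or its neighbours in the result was not tested.

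The other changed members lay on chromosomes with medians between 0.06 and 0.10. Beside *Nanos3*, *4930432K21Rik* rose by 0.65 at a distance of 1.14 kb, and the other neighbours did not pass the test. Beside *Dppa3*, *Gdf3* fell by 0.25 and *Nanog* had a log2 fold change of -0.06 (adjusted p = 0.657). This stretch of chromosome 6 holds several genes of pluripotent and germ cells. Next to *Kit*, the receptor gene *Kdr* fell by 1.68, *Lnx1* by 1.20 and *Tmem165* by 0.27, while the related receptor gene *Pdgfra*, at -0.91, did not pass (adjusted p = 0.33).

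Among the members that did not pass, *Prdm14* had a neighbour, the sulfatase gene *Sulf1*, that fell by 2.25, while the adjacent *Ncoa2* rose by 0.31. *Gm14303*, a pseudogene, fell by 0.65 near *Tcfap2c*. Of the 6 neighbours of *Dnd1*, *Wdr55*, *Zmat2*, *Hars* and *Ndufa2* rose, by 0.55, 0.41, 0.38 and 0.32. Among all genes tested 16.4% were higher at a DESeq2 adjusted p under 0.05. On the far side of *Ifitm3* from *Ifitm1* and *Ifitm2*, *B4galnt4* fell by 0.30.

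**Figure D3:**
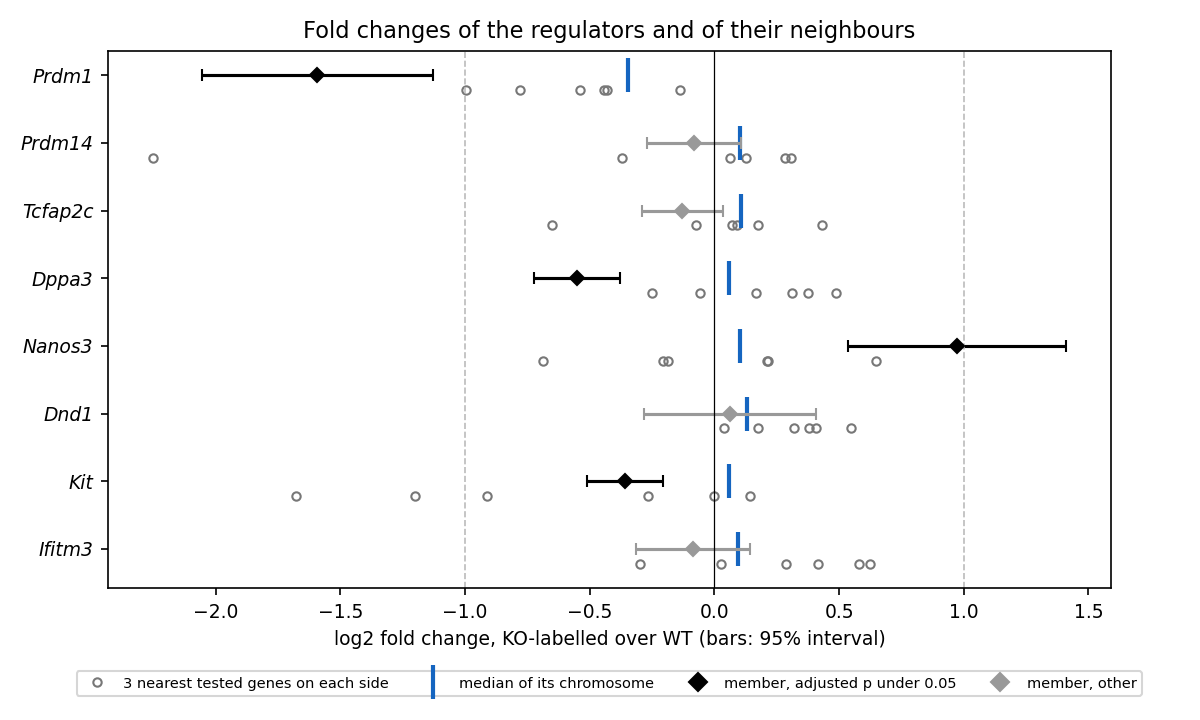
Log2 fold change, KO-labelled over WT (x axis), of each regulator (rows; diamonds with 95% intervals, black where the adjusted p is under 0.05), of its 3 nearest tested genes on each side (open circles) and the median of its chromosome (vertical tick); dashed lines mark a 2-fold change. *Prdm1* (-1.59) lies left of all 6 of its neighbours, and *Nanos3* (0.97) lies right of all of its own.

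Genes tied to germ cell specification were described next from lists written by role, with earlier results of these data known. Inductive signals come first, since BMP4 and WNT3 make the epiblast competent and the T-box genes *T* and *Eomes* follow them. Of 14 genes, 13 were tested, with a median log2 fold change of -0.28. At a DESeq2 adjusted p under 0.05, 2 were higher and 2 lower, beside 16.4% and 15.8% of all genes tested. With edgeR 3 were higher and 6 lower. The edgeR share over all genes by this rule was not computed, here or for the later lists. *T* fell by 3.74 and *Eomes* by 0.98. *Bmp4*, the ligand, had 987.7 and 926.7 normalized counts in WT and 1965 and 1786 in the KO-labelled libraries, a rise of 0.97, and its receptor gene *Bmpr2* rose by 0.40. The ligand genes *Wnt3* and *Bmp8b* were at -0.86 and -0.61 and did not pass (DESeq2 adjusted p = 0.166 and 0.111).

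Genes that work with the regulators or upstream of them included the Prdm14 partner Cbfa2t2, the Prdm1 partner Prmt5, the deadenylase subunits that Nanos proteins recruit and Lin28a and Lin28b, which block the let-7 miRNAs that act on *Prdm1* mRNA. Of 19 such genes 10 were higher and 3 lower, beside 16.4% and 15.8% of all genes tested. Their median log2 fold change was 0.25. *Ezh2* and *Suz12*, which encode Polycomb repressive complex 2 subunits, rose by 0.95 and 0.65. *Lin28a* and *Lin28b* fell by 0.65 and 0.61, on chromosomes 4 and 10 whose medians were -0.21 and -0.35.

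For *Kit*, the genes of its signalling path were followed from ligand to adaptor. Of 14 genes, 2 were higher and 3 lower (2 and 5 with edgeR), with a median of -0.185. The DESeq2 shares over all genes were 16.4% and 15.8%. The ligand gene *Kitl* had 163.1 and 151.4 normalized counts in WT and 146.3 and 100.9 in the KO-labelled libraries, and did not pass (log2 fold change -0.35, DESeq2 adjusted p = 0.438). *Gab1*, an adaptor, fell by 1.20 and *Pik3r1*, the regulatory subunit of PI3 kinase, by 1.16. The phosphatase genes *Ptpn6* and *Ptpn11* moved apart, at 0.43 and -0.30.

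A further list held 30 genes, most from the regulators' families, and also *Dppa2*, *Dppa4* and *Dppa5a*, which share only a naming series with *Dppa3*. Of these, 23 were tested, 4 were higher, *Dppa5a* (0.28) among them, and 3 lower (5 and 5 with edgeR), with a median of -0.03. By DESeq2, 16.4% of all genes were higher and 15.8% lower. *Tcfap2a*, a relative of *Tcfap2c*, rose from 5.30 and 7.62 normalized counts in WT to 31.4 and 40.7, a log2 fold change of 2.47 ± 0.81 (SE) from a low base. *Tcfap2e*, at -1.63, did not pass (DESeq2 adjusted p = 0.0675), *Tcfap2b* had no count in any library and *Tcfap2d* at most 0.871 normalized counts. *Prdm16* and *Prdm11* fell by 0.85 and 0.75. The remaining *Ifitm* genes, *Ifitm5*, *Ifitm6* and *Ifitm7*, had log2 fold changes of 0.41, 1.19 and 0.59 on at most 135 normalized counts and were not called.

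Of 14 genes that germ cell precursors share with pluripotent cells, 2 were higher and 2 lower (2 and 4 with edgeR), with a median of -0.03. The DESeq2 shares over all genes were 16.4% and 15.8%. *Sall4* and *Zfp42* rose by 0.40 and 0.23, and *Epcam* and *Tcl1* fell by 0.85 and 0.32. *Tcl1* was thus close to the median of its chromosome 12, at -0.32. Genes that act later in germ cells, in meiosis and in piRNA silencing, made up another list. Of 16, 5 were higher and 3 lower, beside 16.4% and 15.8% of all genes, with a median of -0.06. *Stra8*, the gatekeeper of meiosis, had 594.0 and 604.4 normalized counts in WT and 1987 and 2190 in the KO-labelled libraries, a log2 fold change of 1.80 ± 0.12 (SE). *Hormad1* and *Slc25a31* rose by 1.39 and 1.22, and *Rhox9* fell by 1.56.

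Finally, genes linked to Prdm14, which restrains de novo DNA methylation and FGF receptor signalling, were compared. Of 7 genes tested, 1 was higher and 3 lower, beside 16.4% and 15.8% of all genes, with a median of -0.18. *Fgfr2* fell by 2.84, and the methyltransferase genes *Dnmt3l* and *Dnmt3b* by 1.28 and 0.79, while *Tet2* rose by 0.61. *Prdm14* itself had a log2 fold change of -0.08.

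The genes with the profile nearest to each changed member were found over the 4 libraries among 13306 genes, as a description. Distance was Euclidean on log2 normalized counts after centring. They were *Cyr61* (distance 0.0717, log2 fold change -1.62) for *Prdm1*, and *Zkscan2* (0.0584, 0.98) and *Sema4g* (0.0649, 0.97) for *Nanos3*. For *Dppa3* they were *Ankrd13a* and *Poglut1* (0.0125 and 0.0136), and for *Kit* *Akt1* and *Slc39a9* (0.0186 and 0.0207). *Akt1* and *Slc39a9*, at -0.37 and -0.36, both lie on chromosome 12, whose median was -0.32.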

How the data were processed

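RNA-seq libraries of total RNA were stranded and depleted of ribosomal RNA. Per the study's methods, the authors mapped paired 75-base reads to mm9 with STAR and counted them over GENCODE vM1 with featureCounts. Each deposited value is a raw count of reads in a gene. Versions and the strand and multi-mapping settings were not given in the sources used here. All 4 columns matched a sample by name. Differences came from the Wald test of DESeq2 1.42.0 under R 4.3.3, with group as the single term and default settings. Benjamini-Hochberg adjustment covered 17710 genes, and genes were called at a 2-fold change and an adjusted p under 0.001. Intervals are 95% Wald intervals, and cover the spread between libraries as modelled. The script was tested on simulated data with known changes. Alternatives were edgeR 4.0.16, other size factors, filters, a replicate block, chromosome medians removed and each library left out.

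Members and lists were chosen with earlier results of these data known. Named genes were all members, their *Ifitm* and *Tcfap2* paralogs, up to 4 genes per list with an adjusted p under 0.05 and the largest fold changes, changed genes among the 3 nearest on each side, and the 2 nearest profiles of each changed member, of which 1 is not reported here; *Kitl*, *Nanog*, *Pdgfra*, *Wnt3*, *Bmp8b*, *Dppa5a* and the marker genes were added after their values were seen. Positions, exons and sequences came from GENCODE vM1 and NCBIM37, the build of the files.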

Additional observations from a re-analysis of the deposited data

How the results depend on the processing

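*Prdm1*, *Dppa3*, *Nanos3* and *Kit* kept their direction and an adjusted p under 0.05 in all 11 alternative fits, with log2 fold changes of -1.70 to -1.25, -0.61 to -0.49, 0.86 to 1.09 and -0.42 to -0.32. With upper-quartile size factors 1 member was called higher (*Nanos3*) and the median of the 8 was -0.0693, and with chromosome medians removed it was -0.211. Leaving out single libraries, where the lone library is assumed to vary like the others, gave medians of -0.194 to -0.0394 and 0 to 1 members called lower, the 0 without WT replicate 2. Over all genes these fits called 137 to 185 higher and 332 to 404 lower, against 241 and 558. An adjusted p under 0.05 with the 2-fold minimum gave 371 and 852. Uncalled members changed sign in places. *Dnd1* was -0.0673 with chromosome medians removed and -0.0589 to 0.182 without single libraries, *Ifitm3* -0.223 to 0.0786 and *Prdm14* -0.165 to 0.0148. The cause was not tested. Same-numbered libraries did not deviate together (r = -0.018 across 13306 genes). With 2 libraries per group this is a single comparison, which cannot tell whether they were handled as pairs. With the replicate block the median was -0.105, 192 genes were called higher and 457 lower, and no member's call changed. Among the changed members *Prdm1* and *Nanos3* had the lowest counts.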
